A study of Mus musculus with 18 samples.

Results

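The growth factor and receptor genes *Bdnf*, *Ntf3*, *Ntrk2*, *Ntrk3*, *Inhba*, *Cntf*, *Fgf1*, *Fgf2* and *Vegfa* were followed across all 18 libraries of a ribosome-tagging study of mouse hippocampus. They are 9 of the 55291 gene symbols in the count tables. The set was chosen by name around *Bdnf* and *Inhba*, which were selected on their higher levels after kainic acid in the astrocyte ribosome fraction of these same libraries. The kainic acid differences in that fraction are therefore given as a description, without a test, as are the comparisons built on them. All mice were wild-type male C57BL/6J, 6 weeks old at virus injection, and all received an adeno-associated virus (AAV) carrying GfaABC1D-EGFP-Rpl10a in the right CA3, so that astrocytes in which this promoter was active made GFP-tagged ribosomes. The KA group was given kainic acid, a glutamate receptor agonist, in the right dentate gyrus 2 weeks after the AAV, and its RNA was collected 14 days later. The AAV control group received the virus alone and was collected 2 weeks after it, and the PBS group received PBS after the virus. Time since AAV therefore differed between KA and AAV control and cannot be told apart from kainic acid in that comparison, and for PBS the collection day was not clear from the sources used here. Each group had 3 homogenates, each pooled from 3 to 4 right hippocampi, and each homogenate gave an IP library (RNA pulled down with an antibody to GFP) and an input library (RNA of the whole hippocampus).

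BDNF and NT-3, the product of *Ntf3*, are neurotrophins: secreted proteins that act on the receptor tyrosine kinases TrkB (*Ntrk2*) and TrkC (*Ntrk3*) and are known for their part in neuronal survival and synaptic change. In the hippocampus, *Bdnf* is transcribed mainly in neurons and is induced by their activity, while astrocytes carry mostly a truncated form of TrkB without the kinase domain. *Inhba* encodes the subunit of activin A, a TGF-beta family ligand that signals through activin receptors and SMAD proteins and is also induced by neuronal activity. FGF1 and FGF2 act on FGF receptors, VEGF-A on endothelial and neural VEGF receptors, and CNTF, a cytokine of the IL-6 family, through the receptor subunit CNTFR.

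Because *Bdnf* and *Inhba* were both higher in the KA libraries, the 250 bases before a RefSeq transcript start of each are shown (GRCm38.p6, plus strand, 5′ to 3′). The *Bdnf* window is chr2:109692186-109692435, before number 3 of its 7 annotated starts in genome order, and the *Inhba* window is chr13:16011601-16011850. The *Bdnf* window was picked from the 7 because it held the motif marked here, so the presence of the motif in it is not a result. Capitals mark a CGTCA half-site, the motif to which CREB, an activity-dependent transcription factor, is known to bind.
Bdnf: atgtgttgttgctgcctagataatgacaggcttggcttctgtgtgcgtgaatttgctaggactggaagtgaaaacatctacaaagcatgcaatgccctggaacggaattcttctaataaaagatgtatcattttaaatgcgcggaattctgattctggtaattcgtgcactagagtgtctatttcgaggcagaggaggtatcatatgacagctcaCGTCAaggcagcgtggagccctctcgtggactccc
Inhba: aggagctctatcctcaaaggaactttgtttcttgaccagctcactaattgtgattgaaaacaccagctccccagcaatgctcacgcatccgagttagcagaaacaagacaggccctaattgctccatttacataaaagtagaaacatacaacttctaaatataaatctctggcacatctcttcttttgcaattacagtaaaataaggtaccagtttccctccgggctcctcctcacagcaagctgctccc
The *Bdnf* window held 1 such half-site, beginning 35 bases before the start, and no other of its 7 windows held TGACG or CGTCA. The *Inhba* window held neither. Of the other genes with windows, the *Fgf2* window and 1 of 2 *Vegfa* windows held TGACG or CGTCA. The windows of *Ntrk2*, *Ntf3* and *Cntf* held neither. Of 32851 promoter windows of this length in the same table, 5836 (17.8%) held TGACG or CGTCA, which together cover both strands. Counts were summed over whole genes, so the libraries do not show which *Bdnf* start was used.

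The IP fraction was checked against cell type markers. Summed over 8 astrocyte markers, the IP libraries ranged from 2250 to 5110 FPKM (fragments scaled to the length of the gene and to the total of the library) and the input libraries from 279 to 833 FPKM. All 8 were higher in IP than in input in each group by edgeR. In KA IP most of the sum was *Gfap*, the intermediate filament gene of reactive astrocytes, at 3680 ± 341 FPKM against 677 ± 146 in AAV control IP (SD, n = 3). Of the 8 markers, 2 were higher and 4 lower in KA IP than in AAV control IP (median log2 difference -0.73), and 4 were higher and 0 lower in input (median 0.71), and for 6 of 8 the effect of KA in IP fell below its effect in input (median -1.31). Against PBS 2 were higher and 3 lower in IP (median -0.32). Markers of other cells were present in the IP, and several lists stood at another level in KA. The summed level of 6 neuron markers was 233 to 294 FPKM in KA IP against 116 to 141 in AAV control IP and 107 to 188 in PBS IP. The 6 dentate granule cell markers summed to 28.4 to 57.1 FPKM in KA IP, 16.8 to 19.9 in AAV control IP and 16.2 to 25.2 in PBS IP, and 2 of the 3 that could be tested, *Prox1* and *C1ql2*, were higher in KA than in AAV control. Of the other 4, *Pdzd2* and *Calb1* had higher means in KA IP than in AAV control IP (3.56 and 1.19 FPKM, 9.82 and 5.06 FPKM), and *Dsp* and *Plk5* did not (0.654 FPKM in KA IP for *Dsp*, and 1.47 and 1.68 FPKM for *Plk5*). The 6 oligodendrocyte markers summed to 1230 to 2360 FPKM in KA IP, 204 to 898 in AAV control IP and 226 to 489 in PBS IP. Interneuron markers had a lower sum in KA IP, 73.7 to 94.0 FPKM against 166 to 241 and 147 to 307, although 3 of the 5 tested were higher and 1 lower than in AAV control. Endothelial markers summed to 4.29 to 6.18 FPKM in KA IP, 10.8 to 16.3 in AAV control IP and 6.03 to 18.6 in PBS IP. Microglia markers summed to 19.8 to 39.0 FPKM in KA IP, 8.38 to 13.2 in AAV control IP and 9.39 to 14.6 in PBS IP. Of the 3 tested in IP, 2 were higher and 0 lower than in AAV control, and 2 higher and 1 lower than in PBS. In input the 6 microglia markers summed to 643 to 1160 FPKM in KA against 71.6 to 110 in AAV control and 83.5 to 89.4 in PBS, all 6 being higher by edgeR against each control, and the CA pyramidal cell markers to 66.9 to 84.1 FPKM against 118 to 194 and 164 to 184. No marker of these lists was at 0 in every library of a group. The part of these cells in the results below was not tested, and in bulk RNA a change in the number of cells of a type and a change in RNA per cell cannot be told apart. Library totals ran from 7991681 to 16032180 counts. KA and AAV control #1 and #2 were sequenced in one run, #3 of both in another and all PBS samples in a further one, so that run and group cannot be told apart in any comparison with PBS.

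*Bdnf* had its highest levels in the KA IP libraries. It stood at 70.2, 62.0 and 87.2 FPKM in KA IP #1 to #3. AAV control IP gave 2.91, 2.91 and 2.57 FPKM and PBS IP 3.42, 2.01 and 3.37. All KA IP libraries lay far above all 6 control IP libraries, and the control groups overlapped each other. Among all genes tested in IP, KA did not overlap AAV control for 37.0% or PBS for 46.0%. In input the shares were 22.6% and 35.9%. They stand beside each statement below that KA libraries did not overlap those of a control group. The mean was 73.2 ± 12.9 FPKM (SD, n = 3) in KA IP, 26.1-fold that of AAV control IP (2.80 ± 0.195) and 24.9-fold that of PBS IP (2.94 ± 0.799). On the log2 scale of the count model the differences were 4.78 (SE 0.254) and 4.67 (SE 0.284). Both comparisons use the same KA libraries.

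In input, *Bdnf* also rose with kainic acid, from a higher base and by less. KA input libraries held 58.1, 52.7 and 48.4 FPKM, AAV control input 12.7, 13.7 and 13.6, and PBS input 12.2, 11.5 and 12.8. The KA libraries again stood clear of both controls, which overlapped. The log2 fold change was 1.99 (SE 0.144, adjusted p = 6.4e-04, edgeR quasi-likelihood test with Benjamini-Hochberg adjustment) against AAV control, and 2.11 (SE 0.106, adjusted p = 2.96e-07, edgeR) against PBS. Within the first sequencing run alone the difference from AAV control was 2.07 (SE 0.0793) in input and 4.57 (SE 0.125) in IP. The p-values against AAV control measure the spread between pooled homogenates together with that between runs, since #3 of both groups came from another run. Chi-square per degree of freedom between the counts of input #1 and #2 was 4.48 in KA and 4.66 in AAV control. In pairs with #3 it was 39.6 to 109. The first-run fits rest on 4 libraries each. Microglia markers were higher and CA pyramidal cell markers lower in the same KA input libraries, as given above, and their part in the input differences of *Bdnf* and the other genes was not tested. The KA effect in IP exceeded that in input by 2.81 (SE 0.253) with AAV control as baseline and by 2.55 (SE 0.272) with PBS.

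The ratio of IP to input for *Bdnf* changed side between groups. In AAV control the 3 homogenates gave ratios of 0.229, 0.212 and 0.190, and in PBS 0.280, 0.175 and 0.264, so every control homogenate had less *Bdnf* in the astrocyte ribosome fraction than in whole hippocampus. The log2 difference of IP from input was -2.11 (SE 0.150, adjusted p = 1.16e-04, edgeR) in AAV control and -1.93 (SE 0.172, adjusted p = 2.92e-06, edgeR) in PBS. In KA the ratios were 1.21, 1.18 and 1.80, all above 1, with a log2 difference of 0.70 (SE 0.197) that was 0.48 (SE 0.126) without KA IP #3. Marker lists shifted as well. For dentate granule cell markers the median log2 difference of IP from input was 0.04 in KA, -1.62 in AAV control and -1.48 in PBS. For neuron markers it was -1.05, -2.23 and -2.2. Interneuron (-0.64 in KA) and CA pyramidal cell (-1.64 in KA) medians were likewise higher in KA than in both controls. The oligodendrocyte median was 1.43 in KA, -0.46 in AAV control and -0.7 in PBS. All 6 oligodendrocyte markers were higher in KA IP than in KA input by edgeR. Astrocyte, microglia and endothelial medians were lower in KA than in both controls. The part of these cells in the *Bdnf* ratios was not tested. FPKM ratios are scaled to library totals and log2 differences to TMM factors, so they need not match exactly. The order of *Bdnf* levels was therefore KA IP, KA input, AAV control input, PBS input, PBS IP and AAV control IP, and only the neighbouring pairs AAV control input with PBS input and PBS IP with AAV control IP overlapped.

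**Figure D1:**
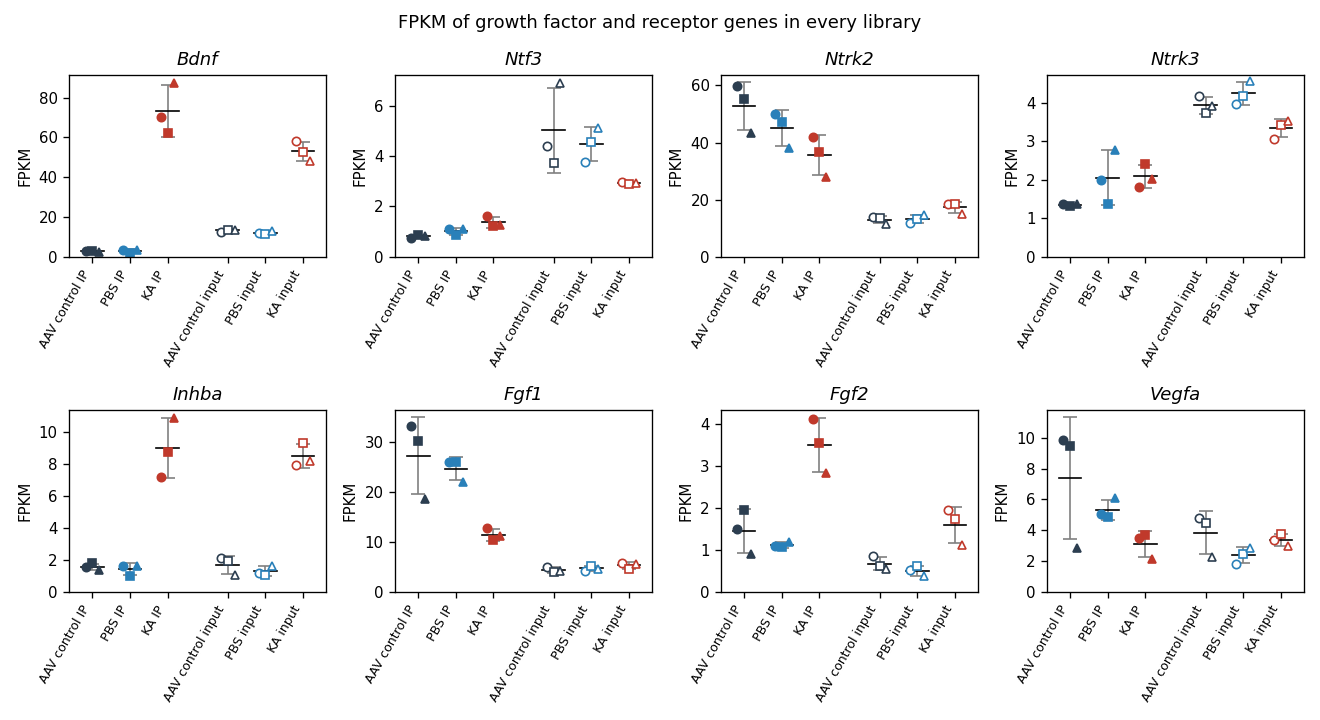
FPKM of 8 genes (y axis, linear, from 0) in the 6 groups of libraries (x axis). Each point is one library, filled for IP and open for input, with a circle, square or triangle for #1, #2 or #3, and black lines with grey bars give the mean and SD of 3 libraries. *Bdnf* lies between 62.0 and 87.2 FPKM in KA IP and between 2.01 and 3.42 in the control IP libraries, whereas *Fgf1* is lower in KA IP than in both control IP groups.

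*Ntf3* encodes the other neurotrophin measured and was scarce. IP libraries held 12 to 31 counts of it, equal to 1.62, 1.23 and 1.28 FPKM in KA, 0.755, 0.854 and 0.820 in AAV control and 1.09, 0.868 and 1.11 in PBS. It did not pass the filter of FPKM above 1 in all compared IP libraries. In input it ran the opposite way to *Bdnf*: KA libraries had 2.96, 2.88 and 2.92 FPKM, AAV control 4.38, 3.73 and 6.91, and PBS 3.77, 4.55 and 5.11. All KA input libraries were below all control input libraries. The fall passed the test against PBS, with a log2 fold change of -0.62 (SE 0.187, adjusted p = 0.0308, edgeR), and not against AAV control (-0.80, SE 0.298, adjusted p = 0.203, edgeR), where AAV control #3 was far above the other 2. With sequencing run as a term that comparison gave -0.75 (SE 0.216, adjusted p = 0.0437, edgeR), where 16% of all genes passed beside 4.49% in the main fit. The call against PBS did not hold without any 1 of 4 of the 6 libraries (KA input #1 or #2, PBS input #2 or #3), where adjusted p was 0.0992 to 0.107 (edgeR). IP was below input in every homogenate of every group, at mean ratios of 0.472 ± 0.0672 in KA, 0.173 ± 0.0553 in AAV control and 0.233 ± 0.0510 in PBS (SD, n = 3). In KA the log2 difference was -0.86 (SE 0.216, adjusted p = 0.0161, edgeR), and adjusted p was 0.0609 (edgeR) without KA IP #2. With the homogenate as a block it was -0.86 (SE 0.213, adjusted p = 0.00829, edgeR), where 52.8% of all genes passed beside 34.4% in the main fit. With the less strict count filter, under which 37.0% of all genes passed in AAV control and 52.2% in PBS, AAV control gave -2.49 (SE 0.378, adjusted p = 0.00155, edgeR) and PBS -2.07 (SE 0.283, adjusted p = 2.18e-05, edgeR).

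*Ntrk2*, the BDNF receptor gene, was the most abundant of the 9 in the control IP libraries. AAV control IP held 59.7, 55.3 and 43.4 FPKM, PBS IP 49.9, 47.3 and 38.2, and KA IP 42.1, 36.6 and 28.0. KA IP libraries were below all AAV control IP libraries but overlapped PBS IP. The log2 differences were -0.52 (SE 0.202) from AAV control and -0.37 (SE 0.265) from PBS, and with replicate number as a block the first was -0.52 (SE 0.143). Of the 8 astrocyte markers, 4 were lower and 2 higher in KA IP than in AAV control IP. The glutamate transporter genes *Slc1a2* (means of 480 and 1360 FPKM) and *Slc1a3* (121 and 288 FPKM) had lower means in KA IP. *Gfap* (3680 and 677 FPKM) and *Aqp4* (352 and 183 FPKM) had higher ones. The part of these markers in the *Ntrk2* difference was not tested. In input the direction of *Ntrk2* was the other one, with 18.5, 18.4 and 15.1 FPKM in KA, 13.8, 13.6 and 11.5 in AAV control and 11.7, 13.2 and 14.8 in PBS. KA input libraries were above all control input libraries. The rise passed against PBS (log2 0.38, SE 0.102, adjusted p = 0.0194, edgeR), although leaving out any 1 of 5 of the 6 libraries (KA #1 or #2, or any PBS library) raised adjusted p to between 0.0582 and 0.0817 (edgeR). Against AAV control it was 0.42 (SE 0.134, adjusted p = 0.143, edgeR). That difference did pass with run as a term (0.42, SE 0.0881, adjusted p = 0.0117, edgeR), where 16% of all genes passed beside 4.49% in the main fit. It passed within the first run (0.43, SE 0.0690, adjusted p = 2.42e-05, edgeR), where 41.6% of all genes did. Without AAV control input #3 it also passed (0.39, SE 0.108, adjusted p = 0.0329, edgeR). There too a larger share of all genes passed than in the main fit. Nothing particular to *Ntrk2* is read from these fits.

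*Ntrk2* was higher in IP than in input in all 9 homogenates. The mean ratio was 4.05 ± 0.279 in AAV control, 3.47 ± 0.839 in PBS and 2.04 ± 0.209 in KA (SD, n = 3). The log2 difference was 2.17 (SE 0.182, adjusted p = 1.53e-04, edgeR) in AAV control, 1.93 (SE 0.246, adjusted p = 3.7e-05, edgeR) in PBS and 1.25 (SE 0.153, adjusted p = 5.78e-04, edgeR) in KA. KA ratios of 2.27, 1.99 and 1.86 were all below the lowest control ratio, 2.58 in PBS #3. How many of all genes had ratios so separated was not computed. For the 8 astrocyte markers the median log2 difference of IP from input was 1.79 in KA, 3.1 in AAV control and 2.9 in PBS. The part of that shift in the *Ntrk2* ratios was not tested. Whole-gene counts do not separate the truncated from the kinase-bearing TrkB transcript.

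*Ntrk3*, the NT-3 receptor gene, had little RNA in IP. KA IP held 1.82, 2.42 and 2.02 FPKM, AAV control IP 1.38, 1.32 and 1.37, and PBS IP 2.01, 1.38 and 2.79. KA was above AAV control in every library (log2 0.68, SE 0.172) and overlapped PBS throughout (0.05, SE 0.210). Input libraries held 3.07, 3.44 and 3.53 FPKM in KA, 4.17, 3.74 and 3.91 in AAV control and 3.98, 4.19 and 4.57 in PBS, all KA values being below all control values. Groups did not overlap for 22.6% of all genes against AAV control and 35.9% against PBS. The fall in input was -0.35 (SE 0.107, adjusted p = 0.0342, edgeR) against PBS and -0.23 (SE 0.144, adjusted p = 0.479, edgeR) against AAV control. The call against PBS was lost without any 1 of 5 libraries (KA #1 or #2, or any PBS library), with adjusted p of 0.0735 to 0.152 (edgeR). The first run alone gave -0.28 (SE 0.0812, adjusted p = 0.00853, edgeR) against AAV control, in a fit where 41.6% of all genes passed. IP was below input in AAV control (log2 -1.38, SE 0.151, adjusted p = 3.84e-04, edgeR) and PBS (-0.95, SE 0.172, adjusted p = 5.6e-04, edgeR), and by less in KA (-0.47, SE 0.156, adjusted p = 0.0489, edgeR). The call in KA was lost under the count filter (adjusted p = 0.0906, edgeR) and without any 1 of 5 of its 6 libraries (KA IP #1 or #2, or any KA input library), with adjusted p of 0.0501 to 0.145 (edgeR). Those fits do not pair IP with input. With the homogenate as a block the difference in KA was -0.47 (SE 0.0872, adjusted p = 0.00189, edgeR), where 52.8% of all genes passed.

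*Inhba*, the activin A subunit gene, was higher in KA in both fractions, with a ratio of means to AAV control of 5.77 in IP and 5.05 in input. KA IP held 7.20, 8.77 and 10.9 FPKM, AAV control IP 1.55, 1.77 and 1.34, and PBS IP 1.61, 0.986 and 1.62. Every KA IP library was several times any control IP library. The KA mean was 8.97 ± 1.88 FPKM (SD, n = 3), 6.37-fold that of PBS IP. The log2 difference was 2.61 (SE 0.242) from AAV control and 2.33 (SE 0.158) within the first run. The second PBS library kept the gene out of the KA and PBS comparison under the FPKM filter, and with the count filter that difference was 2.86 (SE 0.249).

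Input libraries showed the same separation of *Inhba*, with 7.92, 9.31 and 8.20 FPKM in KA, 2.12, 1.90 and 1.02 in AAV control and 1.20, 1.03 and 1.62 in PBS. It rose by a log2 fold change of 2.37 (SE 0.229, adjusted p = 0.00154, edgeR) against AAV control and 2.72 (SE 0.147, adjusted p = 4.83e-07, edgeR) against PBS. The first run alone gave 2.10 (SE 0.128) against AAV control. Unlike *Bdnf*, its IP to input ratio lay around 1 in each group, at 1.06 ± 0.237 in KA, 0.994 ± 0.297 in AAV control and 1.10 ± 0.211 in PBS (SD, n = 3). The IP and input libraries overlapped in each of the 3 groups. These ratios are from FPKM, and from TMM-normalized CPM the mean ratio in KA was 1.3. The log2 difference of IP from input was 0.32 (SE 0.205) in KA, and 0.07 (SE 0.14) without KA IP #3. In AAV control it was 0.06 (SE 0.264, adjusted p = 0.883, edgeR). The difference of the KA effect between IP and input was 0.26 (SE 0.343) for *Inhba* with AAV control as baseline. An antisense pseudogene, *B230303A05Rik*, overlaps *Inhba*, and the library kit does not mark strand. That pseudogene had at most 70 counts in KA IP and 144 in KA input, below its highest counts of 113 and 250 in the matching AAV control libraries.

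**Figure D2:**
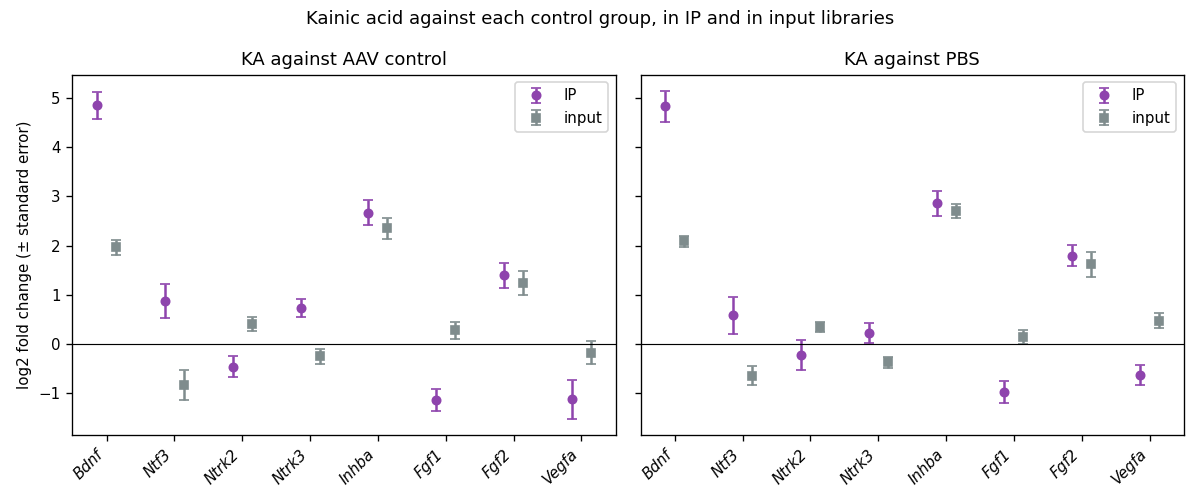
Log2 fold change of KA against AAV control (left) and against PBS (right), with standard error, for 8 genes (x axis) in IP (circles) and input (squares), from edgeR fits with the count filter so that all 8 could be drawn. *Bdnf* is far higher in IP than in input, *Inhba* and *Fgf2* lie close together in both, and *Fgf1* lies below 0 in IP and above 0 in input.

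*Fgf1* stood lower in KA IP than in the control IP libraries, while its input levels overlapped in all groups. KA IP held 12.7, 10.3 and 11.2 FPKM, AAV control IP 33.2, 30.2 and 18.6, and PBS IP 26.0, 26.0 and 22.1. No KA IP library reached any control IP library. The log2 difference was -1.19 (SE 0.213) from AAV control and -1.13 (SE 0.195) from PBS. Of the 8 astrocyte markers, 4 were lower and 2 higher in KA IP against AAV control, and 3 lower and 2 higher against PBS. As for *Ntrk2*, their part in the *Fgf1* difference was not tested. Input means were 5.28 ± 0.631 FPKM in KA, 4.34 ± 0.532 in AAV control and 4.70 ± 0.492 in PBS (SD, n = 3). KA differed from AAV control in input by 0.29 (SE 0.166, adjusted p = 0.421, edgeR) and from PBS by 0.16 (SE 0.139, adjusted p = 0.425, edgeR). IP exceeded input in every homogenate, with mean ratios of 6.27 ± 1.58 in AAV control, 5.29 ± 0.737 in PBS and 2.16 ± 0.136 in KA. The log2 differences were 2.79 (SE 0.218, adjusted p = 1.41e-04, edgeR) in AAV control, 2.55 (SE 0.199, adjusted p = 1.4e-06, edgeR) in PBS and 1.32 (SE 0.157, adjusted p = 4.99e-04, edgeR) in KA. *Arhgap26*, on the opposite strand over *Fgf1*, had up to 598 counts in a library, and reads of the 2 cannot be assigned to a strand.

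*Fgf2* moved the other way from *Fgf1*. KA IP held 4.13, 3.55 and 2.84 FPKM, AAV control IP 1.49, 1.96 and 0.909, and PBS IP 1.09, 1.06 and 1.19. KA IP lay above every control IP library. The log2 difference from PBS was 1.65 (SE 0.190), and from AAV control 1.40 (SE 0.251) with the count filter. In input, KA held 1.94, 1.73 and 1.11 FPKM, AAV control 0.849, 0.618 and 0.551, and PBS 0.514, 0.603 and 0.377. With the count filter, under which 7.20% of all genes passed against AAV control and 27.8% against PBS, the rise in input was 1.24 (SE 0.248, adjusted p = 0.0193, edgeR) against AAV control and 1.62 (SE 0.255, adjusted p = 5.73e-04, edgeR) against PBS. An exact two-sided permutation test on log2(FPKM + 1) gave p = 0.1 for each of these, the smallest that 3 against 3 libraries allow. IP to input ratios overlapped between the 3 groups, at 2.24 ± 0.269 in KA, 2.19 ± 0.848 in AAV control and 2.35 ± 0.734 in PBS (SD, n = 3). IP was above input by 1.36 (SE 0.185, adjusted p = 9.44e-04, edgeR) in KA and, with the count filter, by 1.25 (SE 0.301, adjusted p = 0.0128, edgeR) in AAV control and 1.20 (SE 0.279, adjusted p = 0.0021, edgeR) in PBS.

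*Vegfa* depended on single libraries. AAV control IP held 9.89, 9.49 and 2.84 FPKM, #3 far below the others, KA IP 3.48, 3.70 and 2.15, and PBS IP 5.07, 4.84 and 6.07. KA IP was below PBS IP in every library (log2 -0.78, SE 0.201) and overlapped AAV control IP (-1.17, SE 0.405). In input, KA held 3.38, 3.77 and 2.98 FPKM, AAV control 4.79, 4.47 and 2.26, and PBS 1.81, 2.45 and 2.85. KA input was above PBS input by 0.50 (SE 0.161, adjusted p = 0.0389, edgeR), a call lost without any 1 of 5 libraries (KA #1 or #2, or any PBS library), at adjusted p of 0.0568 to 0.13 (edgeR). Against AAV control input the difference was -0.16 (SE 0.245, adjusted p = 0.803, edgeR). IP exceeded input in PBS (1.30, SE 0.174, adjusted p = 5.42e-05, edgeR). In AAV control the unpaired value was 1.08 (SE 0.444, adjusted p = 0.0932, edgeR), and with the homogenate as a block it was 0.99 (SE 0.165, adjusted p = 0.00103, edgeR). With that block 61.3% of all genes passed, beside 39.7% without it. In KA the unpaired value was 0.09 (SE 0.179, adjusted p = 0.741, edgeR), with a mean ratio of 0.910 ± 0.164 against 1.81 ± 0.485 in AAV control and 2.30 ± 0.436 in PBS (SD, n = 3).

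*Cntf* was at the limit of detection. It had 0 to 3 counts in each library and 0 in all KA input libraries, which allows up to 3 counts in each of them, so a difference between groups was not detectable at this depth. It lies within *Zfp91* on the same strand, a gene with up to 1865 counts, and how the counting treated reads in such shared stretches is not given in the sources used here.

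**Figure D3:**
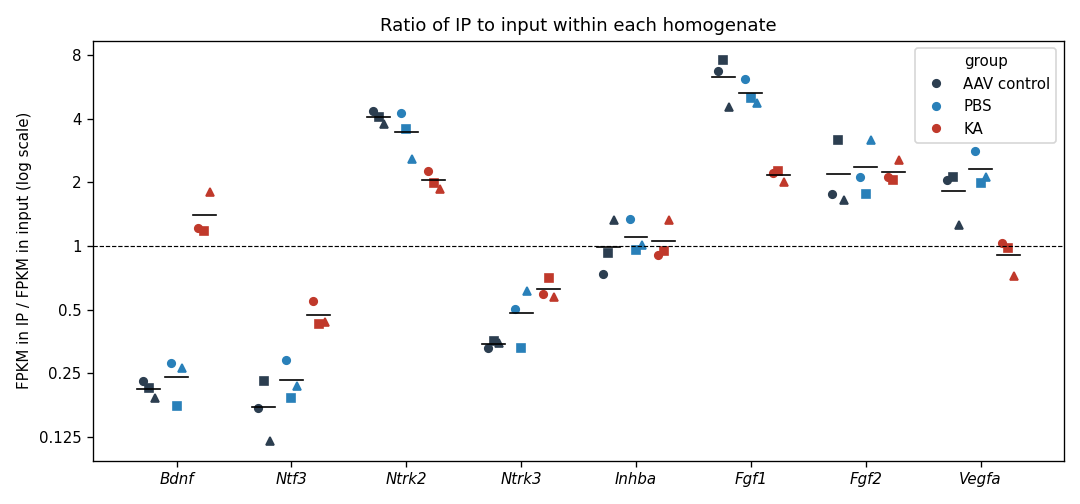
IP level divided by input level, both in FPKM, for each homogenate (y axis, log scale, dashed line at 1) for 8 genes in AAV control, PBS and KA. Circles, squares and triangles are homogenates #1, #2 and #3 and black lines their mean. *Bdnf* is between 0.175 and 0.280 in the controls and between 1.18 and 1.80 in KA, while *Ntrk2* and *Fgf1* lie nearer to 1 in KA than in either control.

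Set against all genes tested, members past an adjusted p of 0.05 were 4 of 6 for KA against AAV control in IP (20.1% of 9729 genes) and 4 of 6 for KA against PBS in IP (37.0% of 9847 genes). Nothing can be read from these 2 counts, since that contrast chose the genes. With replicate number as a block the first was 6 of 6, *Ntrk2* and *Vegfa* being added, where 34.5% of all genes passed. In input 2 of 7 passed for KA against AAV control, *Bdnf* and *Inhba*, where 4.49% of 10809 genes did, and 6 of 7 for KA against PBS, where 27.7% of 10849 genes did. The count against PBS was 2 or 3 when any of KA input #1 or #2 or a PBS input library was left out, with *Bdnf* and *Inhba* past the threshold in each case. IP differed from input for 6 of 8 members in KA (34.4% of 10098 genes), 4 of 6 in AAV control (39.7% of 9961 genes) and 5 of 5 in PBS (56.3% of 10401 genes). The KA count includes *Bdnf* and uses the KA IP libraries on which *Bdnf* and *Inhba* were chosen, so nothing is read from it. The effects of KA in IP and in input differed for 4 of 6 members with the AAV control baseline (13.2% of 9180 genes) and 3 of 5 with PBS (25.5% of 9305 genes), again counts that rest on the contrast used to choose them. With replicate number as a block these were 5 of 6 and 4 of 5, beside 35.8% and 37.4% of all genes.

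The control groups were also compared with each other. PBS and AAV control differed for 0 of 5 members in IP and 0 of 7 in input by edgeR, where 0.00% of 10667 and 0.00% of 10924 genes did. At an unadjusted p under 0.05, 1153 genes (10.8%) in IP and 901 (8.25%) in input were past the threshold. Of the members, 1 in each fraction had an unadjusted p under 0.05, *Ntrk3* in IP and *Vegfa* in input, and DESeq2 called 0 in both. *Bdnf* differed by 0.09 (SE 0.222, adjusted p = 0.882, edgeR) in IP and -0.10 (SE 0.121, adjusted p = 0.792, edgeR) in input. *Inhba* differed in input by -0.34 (SE 0.269, adjusted p = 0.719, edgeR). AAV control #3 bears on this comparison. Without AAV control IP #3, *Vegfa* was lower in PBS IP by a log2 difference of -0.78 (adjusted p = 0.0271, edgeR), where 10.2% of all genes passed. Without AAV control input #3, it was lower in PBS input by -0.89 (adjusted p = 6.2e-04, edgeR) and *Inhba* by -0.57 (adjusted p = 0.0279, edgeR). With that library left out 36.5% of all genes passed, so nothing particular to the 2 of 7 members is read from it.

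Other genes of the same pathways were taken from 6 lists of 79 genes in all. In IP, 9 of the 43 that could be tested were higher and 6 lower in KA than in AAV control, with a median log2 difference of 0.01 beside -0.02 over all genes tested, of which 20.1% passed in either direction. With the count filter it was 20 higher and 9 lower of 71, beside 19.8% of all genes. Against PBS 13 were higher and 8 lower of 43, beside 37.0% of all genes, and 23 higher and 10 lower of 73 with the count filter, beside 40.4%. In input, 8 were higher and 0 lower of 52 against AAV control, with a median of 0.09 beside -0.03 over all genes and 4.49% of all genes passing, and 17 higher and 3 lower of 50 against PBS, beside 27.7%. At an unadjusted p under 0.05, 3 of the 52 were lower against AAV control in input. PBS and AAV control differed for 0 of 47 in IP and 0 of 53 in input by edgeR, with 4 and 7 at an unadjusted p under 0.05.

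Among the genes of the activin and TGF-beta list, 5 of 11 were higher and 1 lower in KA IP than in AAV control IP. Of all genes tested there, 10.4% were higher and 9.74% lower. *Smad7*, an inhibitory SMAD, had means of 7.61 and 2.13 FPKM (log2 1.89, SE 0.444, adjusted p = 0.0223, edgeR). *Acvr1b*, a type I activin receptor, had 6.65 and 2.51 FPKM (1.48, SE 0.301, adjusted p = 0.0137, edgeR). *Fstl1*, a follistatin-related secreted protein, rose from 5.74 to 12.1 FPKM (1.14, SE 0.252, adjusted p = 0.018, edgeR). *Acvr2b*, a type II activin receptor, fell from 3.50 to 1.65 FPKM (-1.03, SE 0.295, adjusted p = 0.0441, edgeR), but did not pass against PBS (-0.70, SE 0.264, adjusted p = 0.0588, edgeR). *Smad7*, *Acvr1b* and *Fstl1* were also higher against PBS, by 2.45, 1.34 and 1.39. In input *Smad7* passed against PBS (1.80, SE 0.232, adjusted p = 3.6e-04, edgeR) and not against AAV control (0.88, SE 0.419, adjusted p = 0.328, edgeR), and *Fstl1* passed against PBS at 0.66 (SE 0.130, adjusted p = 0.00435, edgeR). In input 2 of 14 of the list were higher against AAV control: *Acvr1c*, the type I receptor ALK7 (1.19, SE 0.163, adjusted p = 0.00668, edgeR), and *Tgfbr1*, a type I TGF-beta receptor (0.94, SE 0.163, adjusted p = 0.0185, edgeR). Both passed against PBS as well, at 1.01 and 1.03, among 5 of 14 that were higher. Of all genes tested in input, 3.54% were higher against AAV control and 15.5% against PBS. *Acvr1b* differed in input by 0.02 (SE 0.214, adjusted p = 0.975, edgeR).

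Of the neurotrophin list, 0 of 7 genes passed in IP against AAV control by edgeR, with 3 at an unadjusted p under 0.05, while against PBS in IP 1 of 7 was higher and 2 were lower. Against AAV control *Shc3*, a neuronal Trk adaptor, was the 1 of 8 that passed in input (0.77, SE 0.172, adjusted p = 0.0478, edgeR). It did not pass against PBS in input (0.35, SE 0.195, adjusted p = 0.205, edgeR) and passed there in IP (0.59, SE 0.202, adjusted p = 0.0407, edgeR). Of the FGF list, 2 of 11 were higher and 2 lower in IP against AAV control, and 1 of 10 higher and 1 lower against PBS. Of all genes tested in IP, 10.4% were higher and 9.74% lower against AAV control, and 18.2% and 18.9% against PBS. The FGF signalling inhibitors *Spry1* (1.58, SE 0.280, adjusted p = 0.00805, edgeR) and *Dusp6* (1.18, SE 0.280, adjusted p = 0.0233, edgeR) rose. *Fgfr3*, an FGF receptor of astrocytes, fell from 28.3 to 12.9 FPKM (-1.08, SE 0.295, adjusted p = 0.0381, edgeR), and *Fgfbp3*, an FGF-binding protein, from 19.1 to 4.47 FPKM (-2.02, SE 0.540, adjusted p = 0.0351, edgeR). Against PBS, *Fgfr3* fell by 0.74 (SE 0.219, adjusted p = 0.0225, edgeR), while *Fgfbp3* did not pass (-0.62, SE 0.299, adjusted p = 0.127, edgeR), its level in PBS IP differing from AAV control IP by -1.42 (SE 0.442, adjusted p = 0.436, edgeR). In input *Fgfrl1*, an FGF receptor without a kinase domain, was the 1 of 14 that rose against AAV control (1.26, SE 0.165, adjusted p = 0.00564, edgeR). Against PBS 4 of 13 rose, among them *Fgfrl1* (1.14) and *Dusp6* (1.32, SE 0.152, adjusted p = 1.63e-04, edgeR), and *Dusp6* was also higher against PBS in IP (1.63).

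*Cntfr*, the CNTF receptor subunit, fell in IP from 31.6 to 10.7 FPKM (-1.52, SE 0.206, adjusted p = 0.00281, edgeR), and *Il6st*, the gp130 subunit, rose in input (0.68, SE 0.125, adjusted p = 0.0244, edgeR). *Vegfb* was the 1 of 4 VEGF genes to pass in IP (-0.63, SE 0.145, adjusted p = 0.0208, edgeR). Of the other growth factors, *Hbegf*, an EGF receptor ligand, rose in IP from 24.7 to 62.4 FPKM (1.41, SE 0.243, adjusted p = 0.00721, edgeR) and in input from 4.14 to 15.6 FPKM (1.92, SE 0.120, adjusted p = 6.4e-04, edgeR). *Nrtn*, the GDNF family ligand neurturin, rose in IP from 2.93 to 11.6 FPKM (2.03, SE 0.429, adjusted p = 0.0155, edgeR) and differed from AAV control in input by -0.03 (SE 0.336, adjusted p = 0.975, edgeR). Against PBS it rose in both fractions, by 2.28 in IP (SE 0.384, adjusted p = 0.00154, edgeR) and 1.03 in input (SE 0.266, adjusted p = 0.0159, edgeR). *Ptn*, pleiotrophin, the most abundant of the named pathway genes, fell in IP from 400 to 128 FPKM (-1.59, SE 0.285, adjusted p = 0.00856, edgeR). It also fell against PBS in IP (-1.17, adjusted p = 0.0183, edgeR) and rose against PBS in input (0.68, adjusted p = 0.0166, edgeR). *Ccn2* (1.46, SE 0.314, adjusted p = 0.0413, edgeR) and *Mdk*, midkine (0.84, SE 0.130, adjusted p = 0.0114, edgeR), rose in input. *Cntfr* and *Vegfb* passed against PBS in IP, and *Il6st*, *Hbegf*, *Ccn2* and *Mdk* against PBS in input, in the same directions, as did *Hbegf* in IP.

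**Figure D4:**
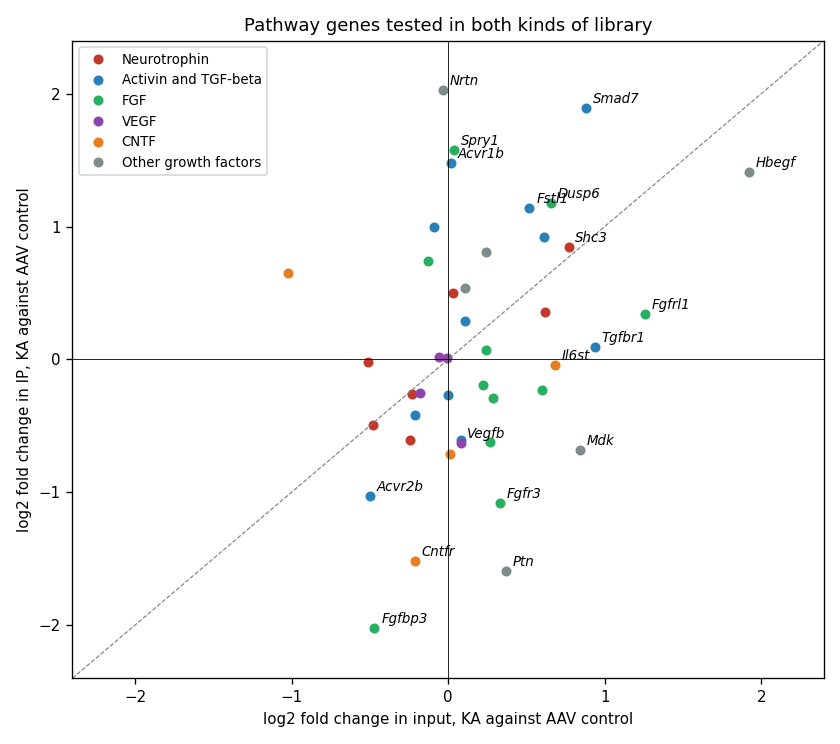
Log2 fold change of KA against AAV control in input (x axis) and in IP (y axis) for the 43 pathway genes tested in both, coloured by list, with named genes labelled and a dashed line where both are equal. *Nrtn*, *Spry1* and *Acvr1b* lie high in IP and near 0 in input against this control, *Hbegf* is high in both, and *Ptn*, *Fgfr3* and *Mdk* are below 0 in IP and above 0 in input.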

How the data were processed

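Per the labels and the methods of the study, IP and input RNA of 9 homogenates was sequenced with a library kit that does not mark strand. STAR alignments to mm10 underlie the files that the authors deposited, which hold raw counts per gene and FPKM values of the 18 libraries. featureCounts and edgeR are named in the submitters' processing notes without a role or version, and the annotation and the handling of multimapping reads are not given in the sources used here. For each of the 9 genes followed, the deposited FPKM equalled the count over the library total and a fixed gene length, within 0.0399%.

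The counts were tested with the quasi-likelihood test of edgeR 4.0.16 (R 4.3.3, limma 3.58.1) after TMM normalization, on the 6 libraries of a comparison (all 4 groups involved for a difference of effects), on genes with FPKM above 1 in every library compared, with Benjamini-Hochberg adjustment over all genes tested and a threshold of 0.05. FPKM is scaled to the library total and fold changes to TMM, so that FPKM ratios and fold changes differ somewhat. Genes under the filter were also fitted with the count filter filterByExpr and compared by exact permutation tests on log2(FPKM + 1). DESeq2 1.42.0, the size factors of DESeq2, no filter, run or replicate number as a term, the first run alone (chosen after seeing the data) and leaving out each library were alternatives. The scripts were tested on simulated data. Promoter windows came from RefSeq (GRCm38.p6), where 7 of the 9 genes had one, and overlapping genes from the GENCODE vM21 annotation.

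The 9 genes and the pathway lists were chosen with earlier results of these data known, the lists from general knowledge. Named beside the 9 were, per list, up to 4 genes with the greatest absolute log2 fold change past the threshold in KA against AAV control, in IP and in input each, and for *Bdnf*, *Inhba* and *Ntrk2* the 5 genes with the highest correlation of log2 CPM over the 18 libraries. Library totals were 7991681 to 16032180 counts, and intervals and floors cover counting error only.

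Same-numbered IP and input libraries came from 1 homogenate. Their deviations from the group means correlated at 0.282 to 0.517 in KA, 0.381 to 0.666 in AAV control and 0.0666 to 0.246 in PBS. Same-numbered KA and AAV control libraries, which shared a run, correlated at 0.252 to 0.443 in IP and 0.245 to 0.439 in input.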

Additional observations from a re-analysis of the deposited data

Results flagged for a closer look

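The effects of KA in IP and in input differed for 11 of 43 pathway genes with AAV control as the baseline, by the interaction term of the edgeR fit, where 13.2% of all genes passed. Of the 11, 9 are among the genes named in the report. The effect in IP exceeded that in input by a log2 difference of 2.09 for *Nrtn*, 1.56 for *Spry1* and 1.48 for *Acvr1b*. It was below that in input by a difference of -1.94 for *Ptn*, -1.5 for *Mdk*, -1.39 for *Fgfr3*, -1.3 for *Cntfr*, -0.91 for *Fgfrl1* and -0.83 for *Tgfbr1*.

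With PBS as the baseline 12 of 43 passed the same test, where 25.5% of all genes did, and 9 of these are among the named genes. *Nrtn* did not pass with this baseline (1.25, SE 0.511, adjusted p = 0.0862, edgeR). The difference was 1.2 for *Acvr1b* and 0.72 for *Fstl1*, both higher in IP, and -1.86 for *Ptn*, -1.49 for *Mdk*, -1.41 for *Cntfr*, -1.39 for *Tgfbr1*, -1.22 for *Fgfr3*, -0.81 for *Fgfrl1* and -0.76 for *Vegfb*. The baselines share the KA libraries, and PBS samples were sequenced in a run of their own.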

How the results depend on the processing

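Counts of members past the threshold moved as follows. For KA against AAV control in IP the count was 4 of 6 tested, and 3 to 7 when a library was left out, 7 of 7 without AAV control IP #3 (33.8% of all genes), and 7 of 7 in the first run alone (46% of all genes). In input that comparison gave 2 of 7, but 4 of 9 without a filter (5.65% of all genes), 4 of 7 with run as a term (16%) and 4 of 7 in the first run (41.6%). KA against PBS in input gave 6, and 2 to 6 when a library was left out. PBS against AAV control gave 0, and 0 to 1 in IP and 0 to 2 in input with a library left out (10.2% and 36.5% of all genes without AAV control #3). IP against input in AAV control gave 4 of 6, and 7 of 9 without a filter (20.1% of all genes). The difference of effects with AAV control as baseline gave 4, and 2 to 5 with a homogenate left out. Under the count filter the pathway genes past the threshold were 29 of 71 tested for KA against AAV control in IP (19.8% of all genes) and 33 of 73 for KA against PBS in IP (40.4%). They were 13 of 71 for KA against AAV control in input (7.2%) and 20 of 74 for the difference of effects with PBS as baseline (20.5%). The values that changed sign were not past the threshold. *Ntrk3* for KA against PBS in IP, given without a test, was 0.05, and -0.11 to 0.24 with a library left out, being below 0 without KA IP #2 or PBS IP #2. For PBS against AAV control in IP the others were *Bdnf* (-0.02 without a filter, and -0.07 to 0.21 with a library left out), *Ntrk2* (-0.32 to 0.01 with a library left out) and *Fgf1* (-0.25 to 0.07). In input *Ntf3* ranged from -0.35 to 0.22, the last without AAV control input #3. For IP against input they were *Vegfa* in KA (-0.03 to 0.25) and *Inhba* in AAV control (-0.19 to 0.22, the first without AAV control input #3). The cause of these changes was not tested. With replicate number as a block, *Bdnf* was 1.99 in input against AAV control and -2.10 for IP against input in AAV control. In the latter fit, where 61.3% of all genes passed, *Vegfa* passed as well (0.99, adjusted p = 0.00103, edgeR). The block changed no other call of a member among the comparisons given with a p. Among those given without one, it raised the members past the threshold from 4 to 6 for KA against AAV control in IP, and for the difference of effects from 4 to 5 with AAV control and from 3 to 4 with PBS as baseline. Ratios of IP to input from TMM-normalized CPM were higher than those from FPKM, and for *Vegfa* in KA crossed 1 (1.11 against 0.910).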

Other observations

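Over the 18 libraries the genes whose log2 CPM followed that of *Bdnf* most closely, of 13274 genes with a mean FPKM above 1, were *Scg2*, a secretogranin of dense-core vesicles (Pearson r = 0.993), *Rgs2*, a regulator of G protein signalling (0.990), *Tpd52l1* (0.989), *Zfp804a* (0.988) and *Lgi2* (0.988). The mean of *Scg2* was 1170 FPKM in KA IP, 16.3 in AAV control IP, 512 in KA input and 79.5 in AAV control input. These values describe libraries that share group, run and depth.

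For *Inhba* the closest were *Lce1g* (r = 0.981), *Gm13715* (0.953), *5031425F14Rik* (0.950), *Ctsd*, a lysosomal protease (0.948), and *Mylk3* (0.946), over the same 18 libraries. *Ctsd* had a mean of 792 FPKM in KA IP and 81.7 in AAV control IP. For *Ntrk2* they were *Rgcc*, *Nacc2* and *Cat*, the gene of catalase (each 0.994), and *Dbx2* and *Metrn* (each 0.993). Among the 9 genes themselves, *Bdnf* and *Inhba* had an r of 0.845, *Ntrk2* and *Fgf1* 0.969, and *Ntrk2* and *Ntf3* -0.949.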
